A study of Mus musculus with 62 samples.

Results

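H3K27me3, the trimethylation of lysine 27 of histone H3, was compared between Daxx-KO and wild-type (WT) haematopoietic stem and progenitor cells (HSPCs) 24 weeks post induction (24 w.p.i.) by CUT&Tag. This assay ties a transposase to an antibody in permeable nuclei, so that the DNA next to the antibody's target is cut, tagged and sequenced. The members were all 134001 regions on the autosomes that the deposited H3K27me3 comparison at this time lists, of 1987591 regions in the 15 comparisons of the series. The comparison holds 2 Daxx-KO and 2 WT libraries. Daxx-KO mice were Daxx F/F Cre +/- and WT mice Daxx +/+ Cre +/-, all on C57BL/6, with a Daxx allele made in C57BL/6N and Mx1Cre from C57BL/6J. Every mouse, WT included, carried Mx1Cre and was given pI:pC, a double-stranded RNA mimic that switches on this interferon-responsive Cre, which is not restricted to HSPCs. In Daxx-KO mice Cre removes exons 2 to 7 of Daxx, a chaperone of the histone variant H3.3. Bone marrow was depleted of lineage-positive cells and c-Kit-positive cells were then enriched with magnetic beads, so each library is a mixture of stem cells and progenitors. Separate mice are labelled for the libraries, and their sex is not given.

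H3K27me3 is written by the Polycomb repressive complex PRC2 and read by the complex PRC1, and it marks genes that a cell keeps silent. Its densest and broadest domains lie over CpG-rich promoters of developmental regulators such as the Hox genes, the classical Polycomb targets. In blood it also covers genes of lineages that a progenitor has not chosen, and it recedes where such genes are switched on. Acetylation of the same lysine, H3K27ac, marks active promoters and enhancers and cannot sit on the same lysine as H3K27me3.

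Each value below is a normalized count, the reads over a site divided by a constant that the authors set for each library. A site was called gained where both Daxx-KO libraries exceeded both WT libraries, lost where both were below, and overlapping otherwise. A log2 difference is log2 of the Daxx-KO mean plus 5 over the WT mean plus 5, and levels are compared between sites only per kilobase (kb). The list holds only sites that passed the authors' test on these same libraries, so directions and sizes are descriptions, no test across sites was run, and sites that did not differ are not seen. A test on counts lists smaller differences where counts are high, so sizes at unlike levels are not on equal terms. With 2 libraries per group, the smallest p that an exact permutation test could give at any single site is 0.33. The list gives differences, not expression, so the HSPC label could not be checked against the levels of its markers. In these bulk libraries, fewer cells that carry the mark and less mark per cell cannot be told apart.

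Promoters of 6 blood genes show the range of sequence at which the mark was gained or lost. Irf8, Gfi1b and Cd8a lay under gained sites, and Kit, Gfi1 and Cebpb under lost ones. They were picked after their values were seen, among the named genes whose site covers the whole of the 250 bases before the RefSeq start (GRCm38.p6, the mm10 build). Each is written 5′ to 3′ on the gene's strand, with every CG dinucleotide, the base step at which Polycomb target promoters are dense, in capitals.
Irf8, gained, chr8:120736108-120736357, plus strand: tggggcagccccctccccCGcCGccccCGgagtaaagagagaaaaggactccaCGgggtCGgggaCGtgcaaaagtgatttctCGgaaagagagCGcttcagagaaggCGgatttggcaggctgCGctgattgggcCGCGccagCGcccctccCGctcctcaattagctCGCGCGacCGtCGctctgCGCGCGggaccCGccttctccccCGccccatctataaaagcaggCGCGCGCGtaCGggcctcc
Gfi1b, gained, chr2:28621983-28622232, minus strand: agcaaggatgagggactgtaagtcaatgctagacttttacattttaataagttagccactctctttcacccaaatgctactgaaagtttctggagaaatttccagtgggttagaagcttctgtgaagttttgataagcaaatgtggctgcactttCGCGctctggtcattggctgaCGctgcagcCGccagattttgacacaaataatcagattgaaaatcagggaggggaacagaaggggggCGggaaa
Cd8a, gained, chr6:71373177-71373426, plus strand: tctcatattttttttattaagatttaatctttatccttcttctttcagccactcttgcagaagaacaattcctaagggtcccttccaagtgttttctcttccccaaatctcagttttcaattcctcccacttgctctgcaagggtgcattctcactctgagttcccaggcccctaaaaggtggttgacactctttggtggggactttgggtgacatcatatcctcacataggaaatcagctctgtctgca
Kit, lost, chr5:75574737-75574986, plus strand: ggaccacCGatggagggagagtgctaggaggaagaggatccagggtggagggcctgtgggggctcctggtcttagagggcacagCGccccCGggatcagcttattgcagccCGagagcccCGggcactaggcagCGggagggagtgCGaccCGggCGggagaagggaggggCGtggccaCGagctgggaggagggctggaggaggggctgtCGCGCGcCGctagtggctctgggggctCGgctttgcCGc
Gfi1, lost, chr5:107724344-107724593, minus strand: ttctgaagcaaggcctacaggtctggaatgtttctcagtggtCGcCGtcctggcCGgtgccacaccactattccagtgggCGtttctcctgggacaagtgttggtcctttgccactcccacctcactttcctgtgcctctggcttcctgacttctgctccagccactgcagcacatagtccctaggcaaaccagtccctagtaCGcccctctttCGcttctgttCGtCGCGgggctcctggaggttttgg
Cebpb, lost, chr2:167688665-167688914, plus strand: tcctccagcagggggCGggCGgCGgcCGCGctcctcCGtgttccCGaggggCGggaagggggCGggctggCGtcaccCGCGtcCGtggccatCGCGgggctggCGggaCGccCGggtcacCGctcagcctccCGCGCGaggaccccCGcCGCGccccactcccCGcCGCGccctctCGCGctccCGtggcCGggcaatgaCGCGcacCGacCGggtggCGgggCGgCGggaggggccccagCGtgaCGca
The Irf8 window holds 29 CG, and 6.99% of 31387 RefSeq promoter windows hold at least as many. The Cebpb window holds 41 CG (1.11% of windows hold as many), the Kit window 17 (24.1%) and the Gfi1 window 9 (40.9%). The Gfi1b window holds 5 CG (56.0%) and the Cd8a window 0 (100%). The gained promoters shown thus span CG-dense and CG-poor sequence, and the lost ones all hold more than the median of 6.

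Of the 134001 sites, 54648 were gained in Daxx-KO HSPCs (percent called 40.8) and 76097 were lost (percent called 56.8), while 3256 (2.43%) overlapped between the groups. Gained sites had a median log2 difference of 1.02, from a median WT mean of 35.5 to a Daxx-KO mean of 78.5 normalized counts per site. Lost sites had a median of -1.19, from 66.0 to 24.6. A change of at least 2-fold was seen at 33405 gained and 57815 lost sites. Most sites were short (median 800 bp, range 600 to 17650 bp), and together they covered 122.0 Mb. Both WT libraries were at 0 at 15 gained sites, and both Daxx-KO libraries at 97 lost ones. Across the sites, log2 values correlated at r = 0.946 between the Daxx-KO libraries and 0.916 between the WT libraries, against 0.576 to 0.651 between groups (134001 sites, chosen for a group difference).

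The libraries differed in depth. The file header gives mean reads per window of 6.62 and 6.93 for the Daxx-KO libraries and of 9.58 and 4.27 for WT, and the median site held 51.8, 49.1, 64.9 and 36 reads. Scaling the reads by the mean reads per window in place of the authors' constants moved the median log2 difference over all sites by 0.31, from -0.77 to -0.46, and left 54592 gained and 63370 lost sites. No site took the opposite direction. This shift is large beside the differences at the sites of highest level, so values under this other scaling are given beside many of the results. A count or share given without such a value may also depend on the scaling.

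The direction varied with the level of the mark. Of the 67800 sites with 50 to 100 normalized counts per kb in the higher group, 67.4% were lost and 31.9% gained. Between 200 and 400 per kb the order turned, with 58.3% gained and 38.6% lost of 12518 sites, and between 400 and 800 per kb 56.1% were gained. These orders stayed under the other scaling, whereas those of the remaining classes below 800 per kb turned. Below 50 per kb, 52.4% of 12666 sites were gained and 47.6% lost, but 17.7% and 82.1% of 17581 under the other scaling. Between 100 and 200 per kb, 46.8% of 32875 sites were gained and 50.3% lost, but 54.3% and 27.9% of 31469 under the other scaling. At the 3075 sites of 800 per kb or more, 27.4% were gained, 37.6% lost and 35% overlapping, and under the other scaling 33.6% were gained, 0.941% lost and 65.5% overlapping. Sites next to each other on a chromosome tended to move together: of 72959 pairs of neighbours within 5 kb, 77.0% had the same direction.

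**Figure D1:**
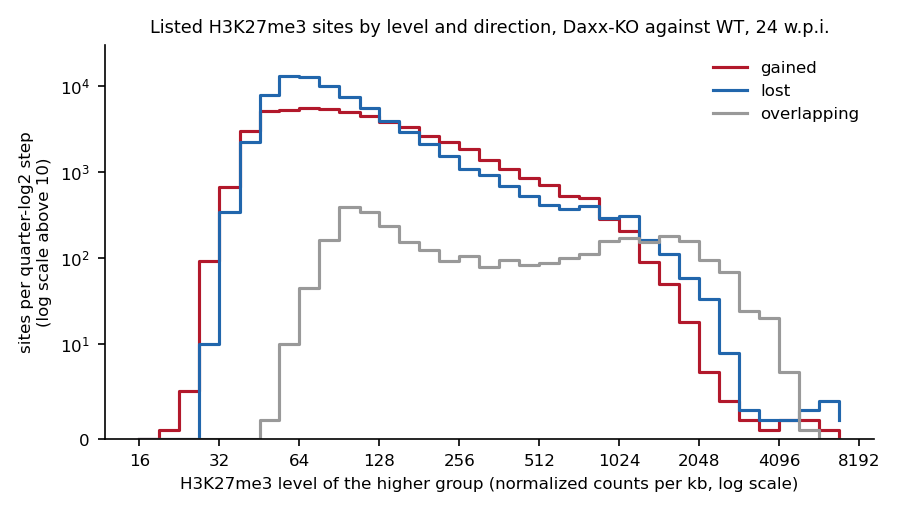
Number of gained (red), lost (blue) and overlapping (grey) H3K27me3 sites per quarter-log2 step (y axis, log scale above 10) by the level of the higher group in normalized counts per kb (x axis, log scale), 2 Daxx-KO against 2 WT libraries. Lost sites outnumber gained ones between 50 and 100 per kb, gained sites outnumber lost ones between 200 and 800, and overlapping sites are most frequent relative to the others above 800.

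Promoters took a larger share of the lost than of the gained sites. Within 1 kb of a protein-coding start site lay 7.09% of gained sites (95% Wilson interval 6.88 to 7.31), 12% of lost sites (11.8 to 12.2) and 36.4% of overlapping sites, with intervals that cover counting error only. CpG-rich sequence (GC over 50% and a CpG observed/expected ratio over 0.6) made up 1.04% of gained, 5.83% of lost and 27.3% of overlapping sites. Gene bodies outside promoters took 44.6% of gained and 39.5% of lost sites, and sequence outside genes 48.3% and 48.5%. Of the 14178 promoter sites, 64.3% were lost and 27.3% gained.

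At CpG-rich promoters the outcome differed by how much of the mark WT cells carried. With 100 to 400 normalized counts per kb in WT, 86.4% of 2735 CpG-rich promoter sites were lost and 5.74% gained. With 400 per kb or more, 33.8% of 896 were lost, 11.2% gained and 493 overlapped. Under scaling by mean reads per window the lost share was 55.1% in the middle class and 2.12% in the highest, where the median log2 difference went from -0.37 to -0.11. At promoters that were not CpG-rich, gains were more common: 36.5% of 3322 sites with 100 to 400 per kb were gained and 60.1% lost. Under the other scaling 36.4% of these sites were gained and 35.9% lost, so their excess of losses rests on the scaling. Each gene was also counted at whichever of its protein-coding starts had the most CG in the 250 bases upstream. The median was 13 CG where a gene had gained promoter sites alone, 18 where it had lost sites alone, and 6 where it had no separated site. The number of starts per gene was not accounted for.

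**Figure D2:**
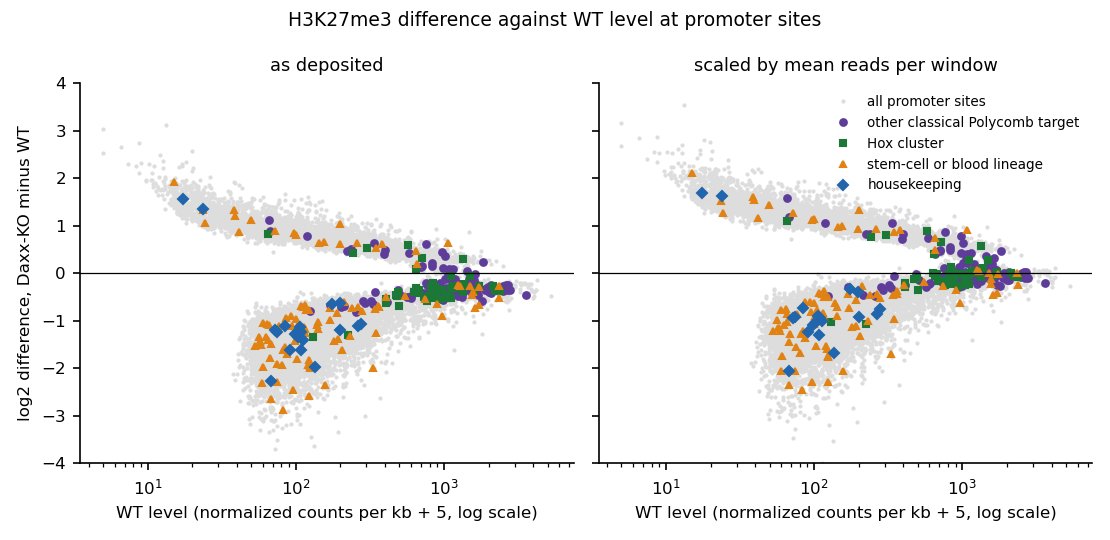
Log2 difference of H3K27me3 (Daxx-KO minus WT, y axis) against the WT level in normalized counts per kb plus 5 (x axis, log scale) at promoter sites, with the counts as deposited (left) and scaled by mean reads per window (right). Hox cluster genes (green) and other classical Polycomb targets (violet) sit mostly at high WT level just below 0 at left and around 0 at right, whereas housekeeping genes (blue) and stem-cell or blood lineage genes (orange) sit mostly at low level and below 0 on both sides.

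The classical Polycomb targets carried the mark at high level in both groups, and the median difference of their listed promoter sites was small. They were 205 genes in 3 lists, Hox cluster genes, developmental transcription factors of other tissues and developmental signalling genes. Of these, 76 had lost promoter sites alone, 14 gained sites alone, 11 both and 104 neither. At least 1 gained promoter site was thus found at 25 of 205 genes (12.2%), beside 2988 of all 20780 protein-coding autosomal genes (percent called 14.4). At least 1 lost site was found at 87 (42.4%), beside 8249 of all genes (percent called 39.7). With the counts as deposited, both shares were near those of all genes. The median promoter site of the 3 lists had 1032 normalized counts per kb in WT and 863 in Daxx-KO and a log2 difference of -0.34, against -0.85 for promoter sites of all genes. The latter had a median of 125 per kb in WT, where a difference has to be larger to be listed. Under scaling by mean reads per window 5 of the 205 genes (2.44%) had a lost promoter site, beside 5968 of all genes (28.7%), and 22 (10.7%) a gained one, beside 14.2%. The median was -0.05, beside -0.55. Over gene windows, 127 of the 205 genes had more lost and 38 more gained sites with the counts as deposited. Under the other scaling the order turned, with 29 more lost (14.1%, beside 44.2% of all genes) and 81 more gained (39.5%, beside 20.9%). The direction at these genes thus rests on the scaling. With the counts as deposited but without the second WT library, 57 in place of 25 genes had a gained promoter site.

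**Figure D3:**
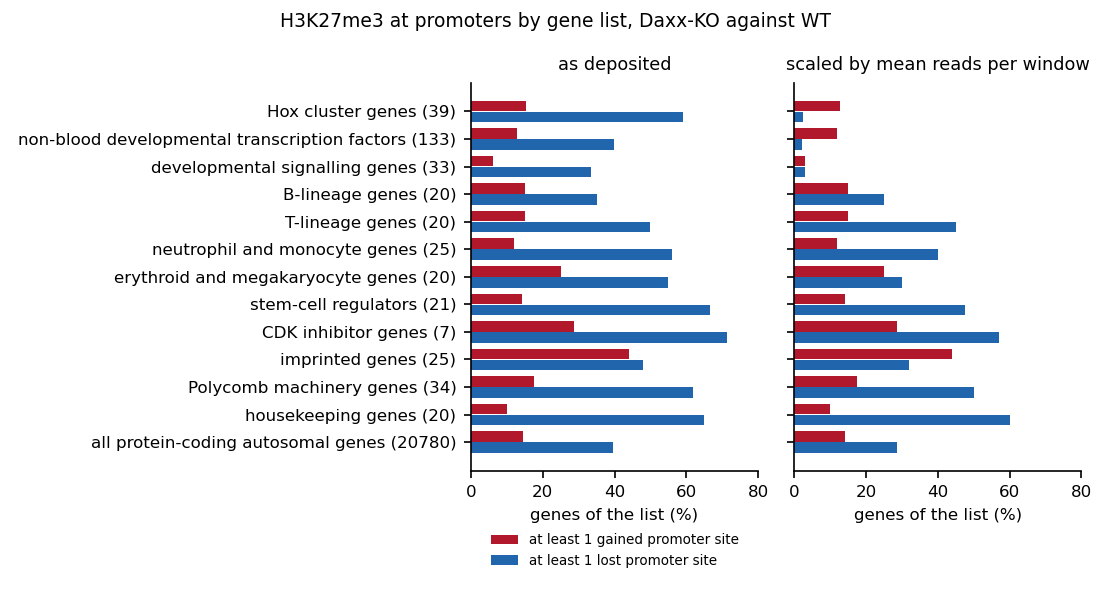
Share of each gene list (x axis, percent of its genes, number of genes in brackets) with at least 1 gained (red) or lost (blue) H3K27me3 promoter site, with counts as deposited (left) and scaled by mean reads per window (right). The lost share of the Hox, developmental transcription factor and signalling lists is 33.3 to 59.0% at left and 2.26 to 3.03% at right, while that of the housekeeping list stays at 60.0% or above.

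Hox genes, which set the body axis and of which several work in stem cells, showed both directions within each cluster. The Hoxa cluster held 4 gained and 30 lost sites (median log2 difference -0.47), Hoxb 12 and 20 (-0.29), Hoxc 5 and 23 (-0.44) and Hoxd 3 and 19 (-0.36). Under the other scaling the same clusters held 4 and 7, 12 and 5, 5 and 4, and 2 and 1 gained and lost sites, so the excess of losses rests on the scaling. Summed over the listed sites of the Hoxa cluster, the normalized counts were 19412 and 17855 in Daxx-KO against 22197 and 26249 in WT. The Hoxb cluster summed to 12223 and 11355 against 13050 and 14068. In both clusters every WT sum was above every Daxx-KO sum, whereas under the other scaling the groups overlapped, with Hoxa sums of 24125 and 18484 in Daxx-KO against 16318 and 28323 in WT. That scaling also set the libraries of each group further apart in both clusters. The Hoxb sums then were 15191 and 11755 in Daxx-KO against 9593 and 15180 in WT.

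Among single Hox promoters, the loss at Hoxb4, a regulator of stem cell self-renewal, was 30.3 and 33.1 normalized counts in Daxx-KO against 90.6 and 84.2 in WT (-1.33). Hoxa5 had 67.0 and 60.7 against 108 and 221 (-1.30), and the groups overlapped there under the other scaling. At Hoxa9, a stem cell factor and a driver of leukaemia, the largest of 2 lost promoter sites had 841 and 980 against 1133 and 1474 (-0.52). None of the 6 lost sites in the Hoxa9 window stayed separated under the other scaling. Gains were found at Hoxa4 (72.6 and 74.5 against 32.7 and 45.7, log2 difference 0.83) and Hoxc6 (1045 and 1080 against 847 and 851, 0.32). Hoxa4 and Hoxb4, which share a position in their clusters and are both low in the mark, stood on opposite sides.

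Developmental transcription factors with a gain included Myf5 of muscle (162 and 205 normalized counts in Daxx-KO against 90.6 and 103 in WT, log2 difference 0.89) and Nkx2-2 of the nervous system and pancreas (427 and 410 against 311 and 281, 0.49). Losses included the forkhead factor Foxd2 (148 and 160 against 293 and 258, -0.82) and the heart and endoderm factor Gata4 (80.6 and 93.8 against 165 and 129, -0.72). Evx2, next to the Hoxd cluster, had a gained site of 600 bp (0.51) and, 200 bp away, a lost one of 1350 bp (-0.47, overlapping under the other scaling). Of the signalling genes, the Wnt ligand Wnt5a had 1477 and 1515 against 942 and 1374 (0.37) and the hedgehog ligand Ihh 1217 and 1089 against 1491 and 1603 (-0.42, overlapping under the other scaling). The differences at these targets were smaller at the higher levels, at which the authors' test also lists smaller ones.

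Neutrophil and monocyte genes had the lowest median difference of the 4 blood lineage lists, and most of their changes were losses. Of 25 genes, 14 had lost promoter sites alone and 3 gained sites alone (Irf8, Klf4 and S100a9). The median promoter site was at -1.22 (-0.92 under the other scaling), beside -0.85 (-0.55) for all genes and -1.19 (-0.92) for housekeeping genes. Over gene bodies and the 5 kb upstream, 18 of 25 genes had more lost than gained sites and 3 more gained, beside 51.4 and 18.0 percent called of all genes. These window numbers of the list were the same under the other scaling, beside 44.2 and 20.9% of all genes.

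A broad loss lay over Gfi1, a zinc-finger repressor required for neutrophils, where 1 site of 7900 bp over the promoter and gene (chr5:107719751-107727650) had 597 and 684 normalized counts in Daxx-KO against 2347 and 2784 in WT (-1.99). Cebpb, a factor of emergency granulopoiesis, had 63.8 and 92.9 against 260 and 394 (-1.99), and Cebpe, which drives the late steps of granulocytes, 68.6 and 57 against 213 and 194 (-1.62). The granule protease gene Prtn3 had 19.1 and 8.28 against 96.2 and 117 (-2.58) and the granule protein gene Ngp 3.99 and 10.1 against 63.5 and 45.7 (-2.31). At these genes each WT value was more than 2 times each Daxx-KO value. Mmp9, the gelatinase of neutrophils, had 6 lost sites and no gain, of which 1 stayed lost under the other scaling. Its broad site of 8450 bp, with 4814 and 4871 against 6828 and 8334 (-0.65), was among those that then overlapped. Csf3r, the receptor of G-CSF, had 7 lost sites and no gain.

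Irf8, which directs progenitors to monocytes and away from neutrophils, carried the longest gained site of all. It spanned 16700 bp around the promoter and first part of the gene (chr8:120731501-120748200), with 6858 and 6562 normalized counts in Daxx-KO against 2846 and 3668 in WT (1.04), and the other 2 sites in its window were gained too. Klf4, also a monocyte factor, had 1177 and 1132 against 599 and 890 (0.63), with 5 gained and no lost sites. S100a9, a calcium-binding protein abundant in neutrophils, had 128 and 137 against 91.5 and 75.7 (0.63). The 3 gains kept their direction under the other scaling.

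**Figure D4:**
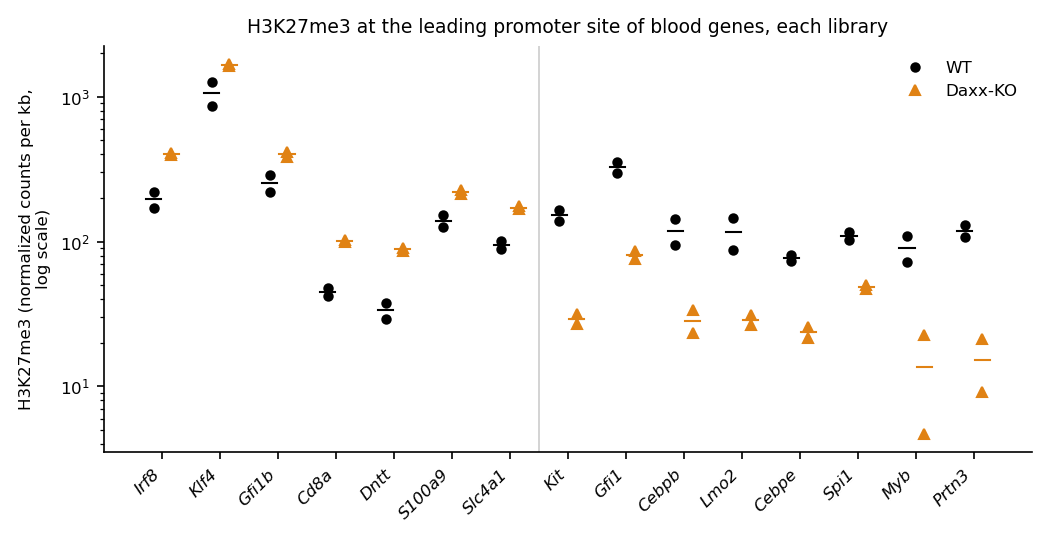
H3K27me3 in each library (y axis, normalized counts per kb, log scale) at the leading promoter site of blood genes, WT in black circles and Daxx-KO in orange triangles, with a bar at each mean (2 libraries per group). At left are 7 gains, from Irf8 to Slc4a1, and at right 8 losses, from Kit to Prtn3. The groups do not overlap at any of the 15 genes.

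Most stem-cell regulators had lost the mark at a promoter. Of 21 genes, 12 had lost promoter sites alone, 1 gained sites alone and 2 both. Any lost site was thus found at 66.7% (beside 39.7% of all genes) and any gained one at 14.3% (beside 14.4%). The median was -1.03, and 10 genes (47.6%, beside 28.7%) had a lost site under the other scaling. Kit, the receptor of stem cell factor and the marker by which these cells were enriched, had a lost site of 8900 bp (chr5:75572801-75581700) with 240 and 280 normalized counts in Daxx-KO against 1232 and 1466 in WT (-2.35). Erg, an ETS factor of stem cells, had 35.1 and 12.9 against 270 and 148 at 1 promoter (-2.88) and a small gain at another (431 and 458 against 369 and 410, 0.19). Myb had 6.38 and 30.4 against 97.1 and 148 (-2.45) and Lmo2 71.8 and 60.7 against 332 and 201 (-1.93). Runx1, which founds definitive blood, had 12 lost sites in its window and no gain. Spi1, the gene of the myeloid and B cell factor Pu.1, had 72.6 and 77.3 against 158 and 181 (-1.13) and 5 lost sites without a gain. These losses started from low levels, between 77.5 and 152 normalized counts per kb in WT for the 5 genes with promoter values. Meis1, a partner of Hox proteins, stood apart with 6 gained sites and 1 lost, and the endothelial protein C receptor gene Procr, a stem cell surface marker, gained (310 and 472 against 216 and 218, 0.83).

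Lymphoid genes had many sites of both directions over their bodies. The 20 B-lineage genes had 89 gained and 69 lost sites in their windows, and the 20 T-lineage genes 61 and 78 (89 and 51, and 62 and 62, under the other scaling). At promoters 3 B-lineage genes had a gained (15.0%) and 7 a lost site (35%), and 3 T-lineage genes a gained (15.0%) and 10 a lost site (50.0%), beside 14.4% and 39.7% of all genes. Foxo1, which starts the B cell programme, had 22 gained sites and 1 lost, and Bcl11b, which commits T cells, 24 and 2. Ebf1, the B cell specification factor, had 22 and 12, and Pax5, which fixes B cell identity, 24 and 24, or 22 and 9 and 24 and 13 under the other scaling. Dntt, the terminal transferase of antigen receptor rearrangement, gained at its promoter (151 and 159 normalized counts in Daxx-KO against 51.4 and 65.7 in WT, 1.33), as did the T cell co-receptor gene Cd8a (185 and 190 against 77.5 and 88.5, 1.13) and the B cell repressor Bach2 (470 and 457 against 261 and 337, 0.62). Over its whole window Dntt had 1 gained and 4 lost sites, Cd8a 1 and 1 and Bach2 12 and 6. Losses were seen at Igll1, the surrogate light chain (3.19 and 5.52 against 72.8 and 34.3, -2.65), at Cd3e of the T cell receptor complex (109 and 92.0 against 247 and 314, -1.44) and, over 5200 bp, at Thy1 (495 and 448 against 1031 and 1326, -1.31). Both directions thus occurred within 1 lineage and within 1 gene.

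Erythroid and megakaryocyte genes had gained promoter sites at 5 of 20 genes (25.0%, beside 14.4% of all genes) and lost ones at 11 (55.0%, beside 39.7%). Under the other scaling 6 genes (30.0%) had lost ones, beside 28.7% of all genes. Gfi1b, the erythroid relative of Gfi1, gained where Gfi1 lost: it had 783 and 853 normalized counts against 451 and 593 (0.64), with 7 gained and no lost sites in its window. Slc4a1, the band 3 anion exchanger of red cells, gained too (132 and 125 against 75.6 and 67.1, 0.80, and 7 sites without a loss). Klf1, the master factor of red cells, lost (8.77 and 10.1 against 71.0 and 27.1, -1.90).

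Imprinted genes were the list with the largest share of gains and the only one of the 13 with a median above 0. Of 25 genes, 11 had a gained promoter site (44.0%, beside 14.4 for all genes) and 12 a lost one, and the median log2 difference over their 33 promoter sites was 0.29 (0.60 under the other scaling). Gains included the noncoding RNA genes of 1 imprinted cluster on chromosome 12, Meg3 (26.3 and 35 normalized counts in Daxx-KO against 8.40 and 1.43 in WT, 1.85), Rian (37.5 and 30.4 against 9.34 and 11.4, 1.34) and Mirg (42.3 and 45.1 against 18.7 and 15.7, 1.13). Each of the 3 also had 1 lost promoter site, beside 2, 5 and 3 gained ones. Mest had 57.4 and 73.6 against 15.9 and 22.9 (1.53). Cdkn1c, an imprinted inhibitor of the cell cycle linked to stem cell quiescence, gained at high level (1479 and 1144 against 822 and 928, 0.58). Plagl1 lost (106 and 27.6 against 260 and 366, -2.15). Many of these sites had few reads, with a median of 78.8 normalized counts per kb in WT.

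The other CDK inhibitors mostly lost. Cdkn2a, the Ink4a/Arf locus that PRC1 holds silent in stem cells, had 114 and 106 normalized counts against 196 and 131 (-0.55), with overlap under the other scaling, and Cdkn2c had 35.1 and 60.7 against 172 and 95.7 (-1.39). Cdkn1a had gained and lost sites at its promoters.

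Genes of the Polycomb machinery had a lost promoter site at 21 of 34 (61.8%, beside 39.7% of all genes) and a gained one at 6 (17.6%, beside 14.4%). Under the other scaling 17 genes (50.0%, beside 28.7%) had a lost one. The gene of the PRC2 methyltransferase Ezh2 lost (27.1 and 23.0 normalized counts against 75.6 and 68.5, -1.36), as did those of the PRC1 members Pcgf5 (25.5 and 16.6 against 104 and 256, -2.83) and Ring1 (7.98 and 12.9 against 65.3 and 45.7, -1.97) and of the H3K27 demethylase Kdm6b (31.1 and 28.5 against 125 and 103, -1.77). The PRC1 genes Cbx6 and Bmi1 gained. Cbx6 had 2297 and 2016 against 1121 and 1426 over 5100 bp (0.76), and Bmi1 140 and 142 against 82.2 and 100 (0.60). Among genes that are active in every cell, 13 of 20 housekeeping genes had a lost and 2 a gained promoter site, with a median of -1.19 from 101 normalized counts per kb in WT. The cyclophilin gene Ppia had 49.5 and 49.7 against 123 and 126 (-1.25) and the actin gene Actb 101 and 125 against 231 and 296 (-1.19). The lost share of the housekeeping list, 65.0%, was thus as high as that of the stem-cell regulators, 66.7%. Under the other scaling these shares were 60.0% and 47.6%.

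Daxx, Spi1, Fbp1 and Fbp2 had lost sites and no gains in their windows. Fbp1, a gluconeogenic enzyme, lost at its promoter (102 and 149 normalized counts in Daxx-KO against 355 and 534 in WT, -1.78) and at each of the 7 sites in its window. Its neighbour Fbp2 had 7 lost sites, none at the promoter. The H3K27me3 site at Daxx (81.4 and 43.2 against 252 and 217, -1.83) lies 0 bp within exons 2 to 7 and says nothing about the deletion. Other antibodies in the same mice bear on the stretch from exon 2 to exon 7, introns included. An H3K27ac site with 2970 bp in this stretch had 113 and 93.7 against 858 and 368, and a Pu.1 site with 950 bp there 0 and 0 against 63.3 and 44.2.

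Wide sites were separated between the groups throughout. Of 335 sites of 4000 bp or more, 135 were gained (percent called 40.3), 200 lost (percent called 59.7) and 0 overlapping. Gained ones went from a median of 130 normalized counts per kb in WT to 277 in Daxx-KO, and lost ones from 228 to 87.4. All 135 gains and 161 of the losses kept their direction under the other scaling. Besides Irf8, wide gains lay in Extl3 (9650 bp, 2221 and 3258 against 974 and 945, 1.51), a glycosyltransferase of heparan sulphate, in Sorcs2 (9500 bp, 2707 and 3203 against 989 and 812, 1.71), a sorting receptor of neurons, and in Limd1, with 2 sites of 8150 and 8050 bp (both 1.40). The longest loss was 17650 bp over the promoter of the ubiquitin ligase gene Nedd4 (1390 and 2164 against 5583 and 6487, -1.76). Dact2, a regulator of Wnt and TGF-beta signals, lost over 9500 bp (1869 and 3176 against 5323 and 7416, -1.33), and Hes5, a Notch target, over 9200 bp (3099 and 3211 against 5006 and 7552, -0.99, overlapping under the other scaling).

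Some genes were covered by sites of 1 direction. With 5 or more sites in the gene window, 269 genes had gains without a loss and 737 losses without a gain, or 263 and 389 under the other scaling. The number of all genes with 5 or more sites is not given here, so these counts are no shares. Of all sites 40.8% were gained and 56.8% lost, and 77.0% of neighbours within 5 kb had the same direction. Plb1 (39 gained sites) and the sulphonylurea receptor gene Abcc8 (36) were among the first, and Smoc2 (41 lost sites), Ccdc162 (40), the monoglyceride lipase gene Mgll (36) and the chondroitin sulphotransferase gene Chst11 (31) among the second. In stretches of 5 Mb with at least 100 sites, the gained share ranged from 6.37 to 71.3% over 380 stretches (median 39.8%).

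By the gap between the groups, the leading promoter gains were mostly of low counts, at Wdr70 (27.1 and 44.2 normalized counts in Daxx-KO, 0 and 0 in WT), Mcmbp, Cyp2a5, Lrp10, Dpep2, Sik3, Upk1a, Ppp1r17 and the shared promoter site of Abi3 and Gngt2. Cyp2a5, a cytochrome P450 of liver, had 232 and 300 against 41.1 and 11.4 (3.12) and Ppp1r17, a phosphatase inhibitor, 297 and 291 against 78.4 and 58.5 (2.02). The leading losses were at Stxbp5, a syntaxin-binding protein (11.2 and 7.36 against 138 and 164, -3.45), F2rl2, Gm49359, Tdrd3, Myo1c, Cmpk1, Clec4n, Ecm1 and the shared site of Pphln1 and Zcrb1, at 6 of which sites both Daxx-KO libraries were at 0. Away from promoters, the largest loss was a site 7670 bp from the start of Ccdc162 (chr10:41597801-41600050, 9.57 and 5.52 against 235 and 334, -4.53) and the highest-count leading gain one of 4250 bp nearest to Ajap1 (286 and 350 against 39.2 and 28.6, 3.05).

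The other 4 antibodies at 24 w.p.i. were run on the same 4 mice, and their own lists of differing sites were set on the H3K27me3 sites. At promoters the H3K27ac directions parted by the direction of H3K27me3. Of the promoter sites that lost H3K27me3 and overlapped H3K27ac sites of 1 direction, 3670 were with H3K27ac gains and 1418 with losses (72.1% gains, Wilson 70.9 to 73.3). Of those that gained H3K27me3, 560 were with gains and 735 with losses (43.2%, 40.6 to 46). The share over all promoter sites of the H3K27ac list was 53.8%. At wide sites it was 72.9% at lost (78 against 29) and 26.5% at gained H3K27me3 (18 against 50), and over all sites 52.2% at lost and 45.4% at gained, both above the 42.5% of the whole H3K27ac list. The shares of gains at lost and gained promoter sites were 70.7 and 69.5% for H3K9me3 and 53.7 and 51.5% for H3.3, with overlapping intervals, beside 64.5 and 53.4% over all promoter sites of their lists. Away from this subset the H3K9me3 shares parted. Over all sites they were 67.9% at lost (67 to 68.7) and 60.2% at gained H3K27me3 (59.1 to 61.4), beside 48.2% of the whole H3K9me3 list. At wide sites they were 77.6% at lost (66 against 19) and 56% at gained H3K27me3 (28 against 22). For Pu.1 the shares at lost and gained promoter sites were 36.3% (34.6 to 38) and 41.8% (39.1 to 44.6), beside 43.3%, so the lost sites had the lower share. All these intervals cover counting error only and treat sites as independent, though neighbouring sites tended to share a direction. They do not measure the spread between mice, so whether intervals overlap is no test of a difference.

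**Figure D5:**
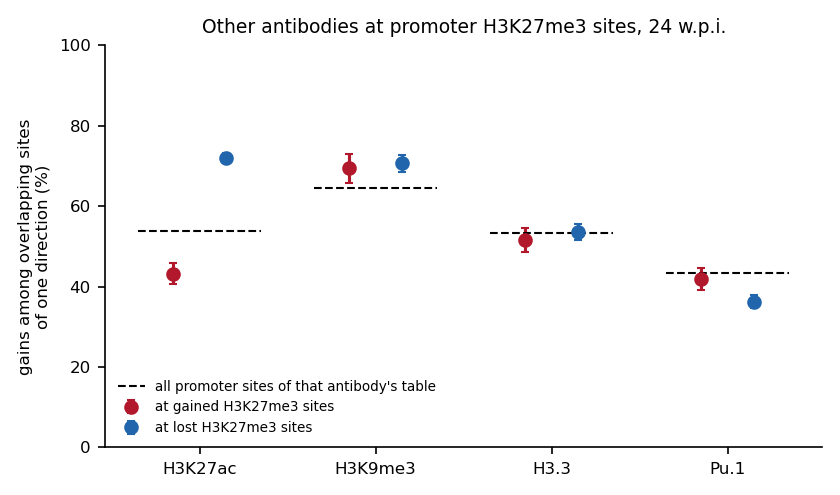
Share of gains (y axis, percent) among sites of each other antibody that overlap a gained (red) or lost (blue) promoter H3K27me3 site, with 95% Wilson intervals for counting error, and the share over all promoter sites of that antibody (dashed line). For H3K27ac the points lie at 43.2 and 72.1% on either side of the line at 53.8%, and for H3K9me3 and H3.3 the intervals of the red and blue points overlap.

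By gene, H3K27ac sites were gained alone at the promoters of 10 of the 14 neutrophil and monocyte genes that lost H3K27me3, and lost alone at 2. For the 12 stem-cell regulators with losses the numbers were 7 and 0, for the 76 classical Polycomb targets 21 and 3 with 51 neither, and for all 7589 such genes 2724 and 1325. At Mmp9, an H3K27ac gain over the gene had 5280 and 4769 normalized counts in Daxx-KO against 2183 and 1802 in WT, against the loss of H3K27me3 there. Fbp1 (224 and 184 against 51.4 and 72.8), Gfi1 (226 and 184 against 95 and 72.0) and Hoxa9 (486 and 282 against 73.7 and 83.8) had H3K27ac gains too. The Fbp1 gain lay within the lost H3K27me3 promoter site. The Gfi1 gain (chr5:107717601-107718750) lay outside the broad lost site, and the Hoxa9 gain (chr6:52229401-52231450) outside the lost sites of that window. These windows held H3K27ac sites of both directions, with 3 gains and 2 losses at Mmp9, 4 and 3 at Fbp1, 5 and 1 at Gfi1, 3 and 1 at Hoxa9 and 11 and 3 at Spi1, while Runx1 had 29 gains and 43 losses. At genes with gained H3K27me3 the picture was mixed. Irf8 had 5 H3K27ac gains and 7 losses, the leading loss with 53.2 and 86.4 against 145 and 185, and Gfi1b 1 gain and 5 losses, the leading one with 41.2 and 42.5 against 280 and 94.1. Since the libraries come from the same mice, these are not independent animals.

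Other mice gave a further view of the same sites. At 8 w.p.i., H3K27me3 was compared between HSPCs of mice with Daxx F/F and Pu.1 F/F alleles and Cre +/-, which lose both genes (DKO), and of Daxx +/+ Cre +/- mice, 3 libraries each, with 26985 gained and 24525 lost sites (52.4% gains). Of the sites gained in Daxx-KO at 24 w.p.i. that overlapped DKO sites of 1 direction, 5807 were with DKO gains and 3656 with losses (61.4%, Wilson 60.4 to 62.3). Of the lost sites, 2906 were with DKO gains and 3854 with losses (43%, 41.8 to 44.2). Time and genotype differ between the comparisons, so their parts in this share cannot be told apart, and 10.7% of the gained and 5.09% of the lost sites had a DKO site of the same direction.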

How the data were processed

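CUT&Tag libraries of H3K27me3 from HSPCs at 24 w.p.i. were used, 2 Daxx-KO and 2 WT, grouped by the labels. The deposited tables hold, for each site, the normalized counts of every library, made by the authors with diffReps 1.55.6 (negative binomial test, 600 bp windows, 50 bp steps, 100 bp fragments, window p cutoff 0.0001, reads on X and Y left out). The submitters' processing notes name CASAVA 1.8.4, cutadapt 1.13, STAR 2.5.3, bedtools and mm10, with no roles. The tables' other columns hold the authors' group averages, log2 fold changes, p-values and adjusted p-values, which were not used.

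Counts were multiplied by the header's constant to recover reads (100.0% of values whole within 1 percent) and, as an alternative, scaled by mean reads per window. Promoters were within 1 kb of a protein-coding start in GENCODE M21, and gene windows the gene body plus 5 kb upstream, so that 1 site can count for several genes. The pseudocount was 5. Overlap with other antibodies needed 1 bp. The members and the 13 lists were chosen with earlier results of these data known. Named genes were the 10 promoter sites and 5 sites per direction with the widest gap between the groups' nearest values, up to 5 genes per list and direction by the same measure, the Hox genes, Daxx, Spi1, Fbp1 and Fbp2. Wide-site genes, genes with sites of 1 direction, Runx1, Csf3r, Mmp9, Actb, Meis1, Foxo1, Bcl11b, Ebf1 and Pax5 were named after their values were seen. Scripts were tested on simulated data. Python 3.11.15, numpy 2.4.6, pandas 2.3.3, scipy 1.17.1 and matplotlib 3.10.9 were used. Nothing in the labels says whether the libraries came from separate preparations, so their spread may be partly technical. Some genes that the rule for named genes picks are not reported here.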

Additional observations from a re-analysis of the deposited data

How the results depend on the processing

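The counts of gained and lost sites, 54648 and 76097, were within 1.5 times under every alternative except a minimum change of 2-fold, which left 33405 gained sites and 57815 lost ones. Leaving out each library in turn gave 54829 to 56233 gained and 76669 to 78098 lost sites. With a replicate block, comparing same-numbered libraries, 54776 sites were gained and 76596 lost. These libraries are different mice, and their number pairs nothing. The promoter share of gained sites was 14.5% within 3 kb of a start and 3.78% within 250 bp, and 7.1 to 8.33% with a library left out, the highest without the second WT library. The promoter share of lost sites was 18.4% and 9.13%, 11.9 to 13% with a library left out, the highest without the first WT library, and 9.97% when scaled by mean reads per window. Genes of the classical Polycomb lists with a gained promoter site numbered 62 within 3 kb, 108 over gene windows and 25 to 57 with a library left out. Those with a lost site numbered 142, 172 and 88 to 118, and 5 when scaled by mean reads per window, where the sites of high level overlap between the groups. The share of H3K27ac gains at lost H3K27me3 sites was 54.5% with an overlap of at least 50% of the shorter site and 48.4% within 1 kb. Other length limits for wide sites were chosen after seeing the data: 3 kb gave 375 gained and 466 lost sites, and 5 kb gave 58 and 93. Wider or narrower windows take in more or fewer sites by construction, and the cause of the other shifts was not tested. Among the named sites, genes and lists, 282 of the recomputed values moved by less than the spread between libraries and 52 by more. Among the headline results, 62 recomputed values moved by less and 20 by more. Depth limits the sites of few reads, where a fold against 0 depends on the pseudocount and is no bound, and 2 libraries per group limit every direction.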
